A study of Mus musculus with 16 samples.

Results

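A set of 8 genes of insulin signalling and GLUT4 traffic was followed in mouse gastrocnemius, the large mixed calf muscle: Insr, Irs1, Irs2, Pik3r1, Akt2, Tbc1d1, Tbc1d4 and Slc2a4. They were chosen by name as the rows of the deposited expression table that carry these symbols, and all 8 were found among its 23440 genes. RNA-seq had been made from 16 male C57Bl6/J mice aged 20 weeks, 4 in each of 4 groups: trained Il13-/- mice (KO trained), untrained Il13-/- mice (KO untrained), trained wild-type mice (WT trained) and untrained wild-type mice (WT untrained). Il13 encodes interleukin-13, a cytokine of type 2 immunity. Training was 5 weeks of daily treadmill running. The labels give each library a mouse of its own. How the Il13 allele was made, whether KO and WT mice were littermates, and the feeding or insulin state at collection are details not given in the labels.

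Insulin binds its receptor on the muscle fibre, and the activated receptor phosphorylates IRS adaptor proteins, which recruit phosphoinositide 3-kinase. The lipid this enzyme makes brings the kinase AKT2 to the membrane, where AKT2 phosphorylates and thereby restrains TBC1D4, a protein that otherwise keeps Rab GTPases inactive. With the Rabs active, vesicles that carry the glucose transporter GLUT4, the product of Slc2a4, fuse with the cell surface. TBC1D1 is the close relative of TBC1D4, and contraction and AMP-activated protein kinase act on it as well. Most of this control is by phosphorylation and vesicle movement, which RNA levels do not measure.

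With training averaged over genotypes, the smallest p-values among the 8 genes belonged to the 2 Rab GTPase-activating proteins, which differed in opposite directions. Tbc1d1 averaged 14.6 ± 2.27 RPKM in WT trained and 20.8 ± 1.61 RPKM in WT untrained muscle (SD, n = 4 each), while Tbc1d4 averaged 7.15 ± 0.782 RPKM in WT trained and 5.65 ± 0.685 RPKM in WT untrained muscle (SD, n = 4 each). The same directions were measured in the KO mice. Neither gene passed an adjusted p of 0.05 in either genotype or in the average of both. Insr was 1.09-fold higher in KO than in WT muscle in both training states without passing the test, and every KO library lay above every WT library of the same state. Slc2a4 was 0.903-fold with training in KO muscle, where the groups did not overlap, and 0.957-fold in WT muscle, where they did, and neither difference passed the test. RPKM values are read counts scaled by transcript length and library depth, so their levels can be compared between genes.

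The libraries held between 16307025 and 20074677 reads, as solved from the steps of the RPKM values, with a median of 17780533. The listed genes took 76.7 ± 1.27% of the reads in KO trained, 79.9 ± 1.95% in KO untrained, 78.6 ± 3.51% in WT trained and 82.3 ± 1.57% in WT untrained libraries (SD, n = 4 each). The first WT trained library, with the fewest reads, stood apart from its group at 83.5%, against 76.0% to 78.8% in the other 3. Training differences of Tbc1d1, Tbc1d4, Irs1, Irs2, Akt2 and Slc2a4 are given with and without it, those of the pathway genes only with it. Il13 was at 0 in all 8 WT libraries and above 0 in 2 KO trained and 2 KO untrained libraries, at 0.0921 RPKM or less, so its level does not check the genotype labels. The tissue label matched the fast-fibre genes, whose 10 markers summed to between 71244 and 94152 RPKM. All 8 genes followed here were above 1 RPKM in every library and so were among the 10171 genes tested.

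Slc2a4 was the most abundant of the 8, at a mean of 178 RPKM over the 16 libraries and place 255 among the tested genes. Akt2 followed with 74.8 RPKM, Tbc1d1 with 17.4 RPKM, Insr with 9.27 RPKM and Tbc1d4 with 6.79 RPKM. This order of the first 5 held within each of the 16 libraries. Irs2 and Pik3r1, both at 4.40 RPKM, and Irs1, at 3.70 RPKM, could not be ordered: Irs2 was above Pik3r1 in 6 of 16 libraries and Pik3r1 above Irs1 in 11 of 16. The kinase and the transporter were therefore many-fold above the receptor and the adaptors in RNA per unit of length.

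The 8 genes also differed in how far they varied between mice. The highest library was 1.22 times the lowest for Insr, 1.21 times for Akt2 and 1.22 times for Slc2a4. It was 2.42 times the lowest for Irs1, 2.06 times for Irs2, 1.96 times for Pik3r1, 2.10 times for Tbc1d1 and 1.72 times for Tbc1d4. Within single groups the coefficient of variation of Irs1 reached 33.96%, whereas that of Insr stayed at 4.54% or below. The fewest reads for any of them in a library were 235, for Irs2, at which counting alone gives a coefficient of variation of 6.52%. The measured values for Irs2 ran from 13.8% to 32.4% by group.

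**Figure D1:**
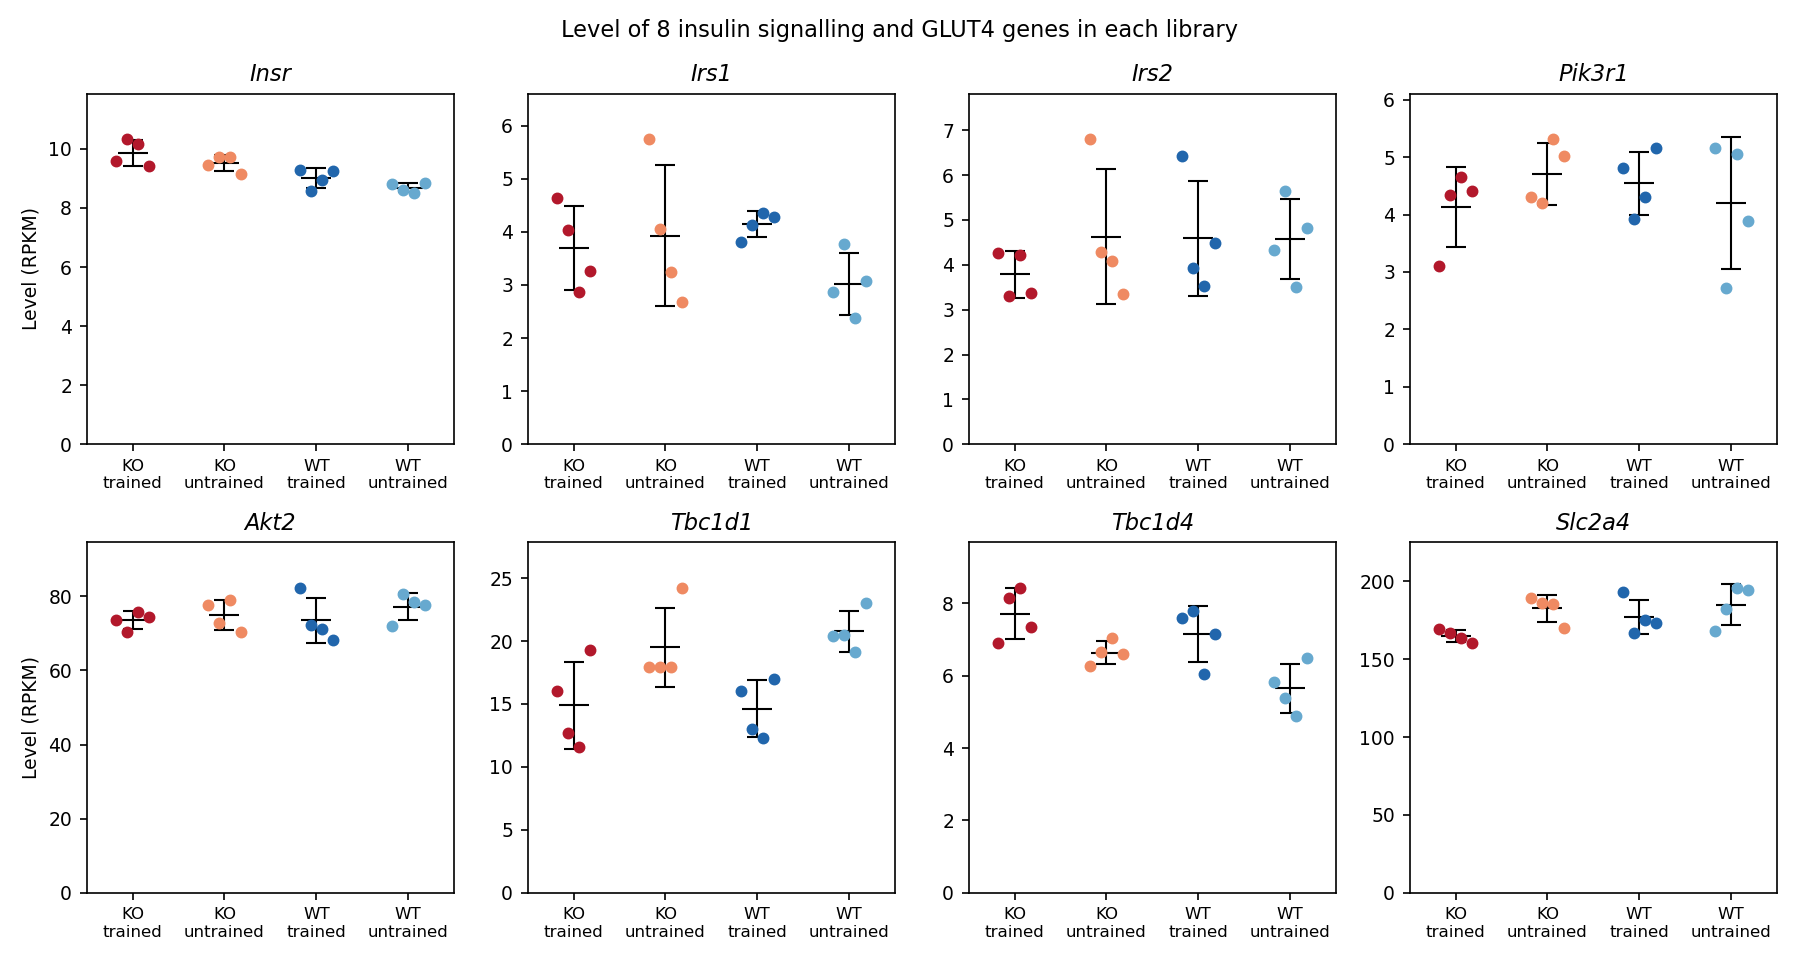
Level of each of the 8 genes in RPKM (vertical axes) in the 4 groups (horizontal axes), with a point for each mouse and a bar at the group mean with its SD (n = 4). Tbc1d1 is lower and Tbc1d4 higher in the trained groups with some overlap, and Insr is higher in both KO groups, within a span of 1.22-fold over all 16 libraries.

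Insr encodes the insulin receptor and lies at 8:3150922-3279617 (mm10, minus strand; like the other positions, from the deposited table). It measured 9.57, 10.3, 10.2 and 9.40 RPKM in KO trained muscle, against 9.30, 8.57, 8.96 and 9.24 RPKM in WT trained muscle. In untrained mice it measured 9.46, 9.74, 9.72 and 9.16 RPKM in KO muscle, against 8.82, 8.60, 8.49 and 8.84 RPKM in WT muscle. Each KO library was thus above each WT library of the same state, by a small margin. The fitted log2 difference between KO and WT was 0.13 (SE 0.05) in trained and 0.13 (SE 0.05) in untrained mice, with adjusted p of 0.311 and 0.780 (limma). Averaged over both states it was 0.13, or 1.09-fold with a 95% interval of 1.03 to 1.16, with an unadjusted p of 0.00375 and an adjusted p of 0.297. Training gave a log2 difference of 0.05 in each genotype, within 95% intervals of -0.06 to 0.17 in KO and -0.06 to 0.17 in WT muscle.

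Irs1 and Irs2 encode the adaptors that link the receptor to phosphoinositide 3-kinase. Irs1 (1:82233105-82291439, minus strand) measured 3.81, 4.13, 4.36 and 4.28 RPKM in WT trained muscle, against 2.86, 3.77, 2.37 and 3.06 RPKM in WT untrained muscle. The WT groups did not overlap, but only by a small margin, with 3.81 RPKM in the lowest trained and 3.77 RPKM in the highest untrained library. The narrow spread of the trained mice contrasts with that of the untrained ones. In KO muscle it measured 4.64, 4.03, 2.86 and 3.27 RPKM after training, against 5.74, 4.05, 3.24 and 2.68 RPKM without it, so the trained values lay within the range of the untrained ones. The log2 difference with training was -0.05 (SE 0.20) in KO and 0.46 (SE 0.20) in WT mice, with adjusted p of 0.923 and 0.354 (limma). The difference between these training responses, KO minus WT, was -0.51 with a 95% interval of -1.10 to 0.07 and an adjusted p of 0.653, so a difference between genotypes was not shown.

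Irs2 (8:10986964-11008430, minus strand) averaged 3.79 ± 0.523 RPKM in KO trained, 4.63 ± 1.499 RPKM in KO untrained, 4.59 ± 1.28 RPKM in WT trained and 4.57 ± 0.896 RPKM in WT untrained muscle (SD, n = 4 each). The groups overlapped in every comparison. Single libraries lay well above the others of their group, at 6.80 RPKM in KO untrained muscle and 6.42 RPKM in the first WT trained library. The 95% interval of the training difference, averaged over genotypes, ran from 0.739-fold to 1.14-fold. Exons of Irs1 and Irs2 each overlap an annotated gene on the other strand (Gm9747 and 9530052E02Rik). The kit keeps strand, but whether the counting used it is not given in the sources used here, so the values of both adaptors are uncertain in that respect.

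Pik3r1 encodes the regulatory subunit p85 alpha of phosphoinositide 3-kinase (13:101680762-101768217, minus strand). It averaged 4.13 ± 0.700 RPKM in KO trained, 4.71 ± 0.542 RPKM in KO untrained, 4.55 ± 0.548 RPKM in WT trained and 4.20 ± 1.147 RPKM in WT untrained muscle (SD, n = 4 each). The highest library, a KO untrained one at 5.31 RPKM, and the lowest, a WT untrained one at 2.72 RPKM, were both from untrained mice. The training difference averaged over genotypes had a 95% interval of 0.822-fold to 1.18-fold.

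Akt2 encodes the AKT isoform that carries the insulin signal to glucose uptake (7:27591560-27639453, plus strand). It averaged 73.6 ± 2.31 RPKM in KO trained, 74.99 ± 3.98 RPKM in KO untrained, 73.5 ± 6.12 RPKM in WT trained and 77.2 ± 3.63 RPKM in WT untrained muscle (SD, n = 4 each). With at least 3898 reads in every library it was measured closely. The training difference averaged over genotypes was 0.967-fold with a 95% interval of 0.907 to 1.03, and the KO against WT difference was 0.987-fold with an interval of 0.926 to 1.05. Its paralog Akt1 was lower, at a mean of 17.7 RPKM.

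Tbc1d1 (5:64160211-64351486, plus strand) and Tbc1d4 (14:101442360-101609191, minus strand) encode the Rab GTPase-activating proteins. Because their RNA differed with training in opposite directions, the 250 bases before their RefSeq starts (GRCm38.p6) are shown, 5′ to 3′ on the strand of the gene. Tbc1d1 has a first window at chr5:64160010-64160259 and a second, before an internal start, at chr5:64230107-64230356. The Tbc1d4 window is chr14:101609192-101609441. Capitals mark the E-box CANNTG, searched on both strands.
Tbc1d1 first start: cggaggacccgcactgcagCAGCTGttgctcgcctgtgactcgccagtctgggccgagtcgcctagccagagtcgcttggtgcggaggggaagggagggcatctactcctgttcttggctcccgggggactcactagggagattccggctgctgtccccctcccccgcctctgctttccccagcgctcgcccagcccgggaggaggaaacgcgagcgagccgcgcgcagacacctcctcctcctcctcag
Tbc1d1 second start: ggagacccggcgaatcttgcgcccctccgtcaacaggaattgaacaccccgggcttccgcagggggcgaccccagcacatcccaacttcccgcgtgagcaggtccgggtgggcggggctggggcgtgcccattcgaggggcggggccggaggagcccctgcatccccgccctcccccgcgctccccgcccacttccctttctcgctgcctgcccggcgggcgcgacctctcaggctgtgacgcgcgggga
Tbc1d4 start: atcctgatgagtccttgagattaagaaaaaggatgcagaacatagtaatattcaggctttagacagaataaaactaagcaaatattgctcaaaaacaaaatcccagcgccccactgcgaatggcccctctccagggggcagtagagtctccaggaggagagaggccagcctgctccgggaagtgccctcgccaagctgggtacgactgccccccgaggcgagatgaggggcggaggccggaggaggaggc
The Tbc1d1 windows are GC-rich, at 68.4% with 20 CpG and 73.6% with 27 CpG, and the Tbc1d4 window is less so, at 54.8% with 9 CpG. Over all 32851 RefSeq windows of this length the median was 52.4% GC and 6 CpG. Only the first Tbc1d1 window holds an E-box, a motif present in 66.2% of all windows. None of the 11 windows available for 6 of the 8 genes matched the MEF2 consensus, found in 2.92% of all windows, which says nothing of whether MEF2 acts on these genes from elsewhere.

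Tbc1d1 measured 16.04, 13.0, 12.3 and 17.0 RPKM in WT trained muscle, against 20.4, 20.5, 19.1 and 23.0 RPKM in WT untrained muscle. All 4 WT trained libraries were below all 4 WT untrained ones. In KO mice it measured 16.04, 12.7, 11.5 and 19.3 RPKM after training, against 17.97, 17.94, 17.93 and 24.2 RPKM without it. One trained library, at 19.3 RPKM, lay above 3 of the untrained ones, so the KO groups overlapped. The fitted training difference was 0.755-fold in KO (log2 -0.41, SE 0.15, unadjusted p = 0.0142, adjusted p = 0.267) and 0.700-fold in WT muscle (log2 -0.51, SE 0.15, unadjusted p = 0.00301, adjusted p = 0.139; limma). Averaged over genotypes it was 0.727-fold (log2 -0.46, SE 0.10) with a 95% interval of 0.624 to 0.847. That average ranked 82 among 10171 genes by p, and its adjusted p of 0.0529 missed the threshold of 0.05 by a small amount. Other settings gave adjusted p values for it between 0.0105 and 0.109, among them 0.0173 without the WT trained library at 16.04 RPKM and 0.0203 without the KO trained library at 19.3 RPKM. No other omission of a single library brought this adjusted p under 0.05. In whole muscle, fewer cells of a type and less RNA per cell cannot be told apart.

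Tbc1d4 measured 7.61, 7.80, 6.05 and 7.15 RPKM in WT trained muscle, against 5.83, 5.38, 4.89 and 6.50 RPKM in WT untrained muscle. In KO mice it measured 6.91, 8.15, 8.44 and 7.35 RPKM after training, against 6.27, 6.66, 7.03 and 6.61 RPKM without it. In each genotype 15 of the 16 pairings of a trained with an untrained library had the trained one higher. The fitted training difference was 1.16-fold in KO (log2 0.21, adjusted p = 0.347) and 1.26-fold in WT muscle (log2 0.34, adjusted p = 0.134; limma). Averaged over genotypes it was 1.21-fold (log2 0.27, SE 0.07) with a 95% interval of 1.09 to 1.33 and an adjusted p of 0.0621, which other settings moved between 0.0256 and 0.140, among them 0.0328 without the WT trained library at 7.61 RPKM. Between the genotypes, Tbc1d4 in untrained muscle averaged 6.64 ± 0.314 RPKM in KO and 5.65 ± 0.685 RPKM in WT mice (SD, n = 4 each), a log2 difference of 0.24 with an adjusted p of 0.780.

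The ratio of Tbc1d1 to Tbc1d4 within each library was formed after their values were seen and is given as a description. It was 1.97 ± 0.600 in KO trained, 2.94 ± 0.4996 in KO untrained, 2.05 ± 0.292 in WT trained and 3.69 ± 0.204 in WT untrained muscle (SD, n = 4 each). The WT groups were apart, at 1.67 to 2.38 in trained and 3.499 to 3.91 in untrained libraries. The KO trained ratios of 1.37 to 2.62 overlapped the KO untrained ratios of 2.55 to 3.67. No difference between genotypes in the training response of either gene passed the test. The difference of responses, KO minus WT, was 0.11 on the log2 scale for Tbc1d1 (95% interval -0.33 to 0.55, adjusted p = 0.906) and -0.13 for Tbc1d4 (95% interval -0.41 to 0.16, adjusted p = 0.809).

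**Figure D2:**
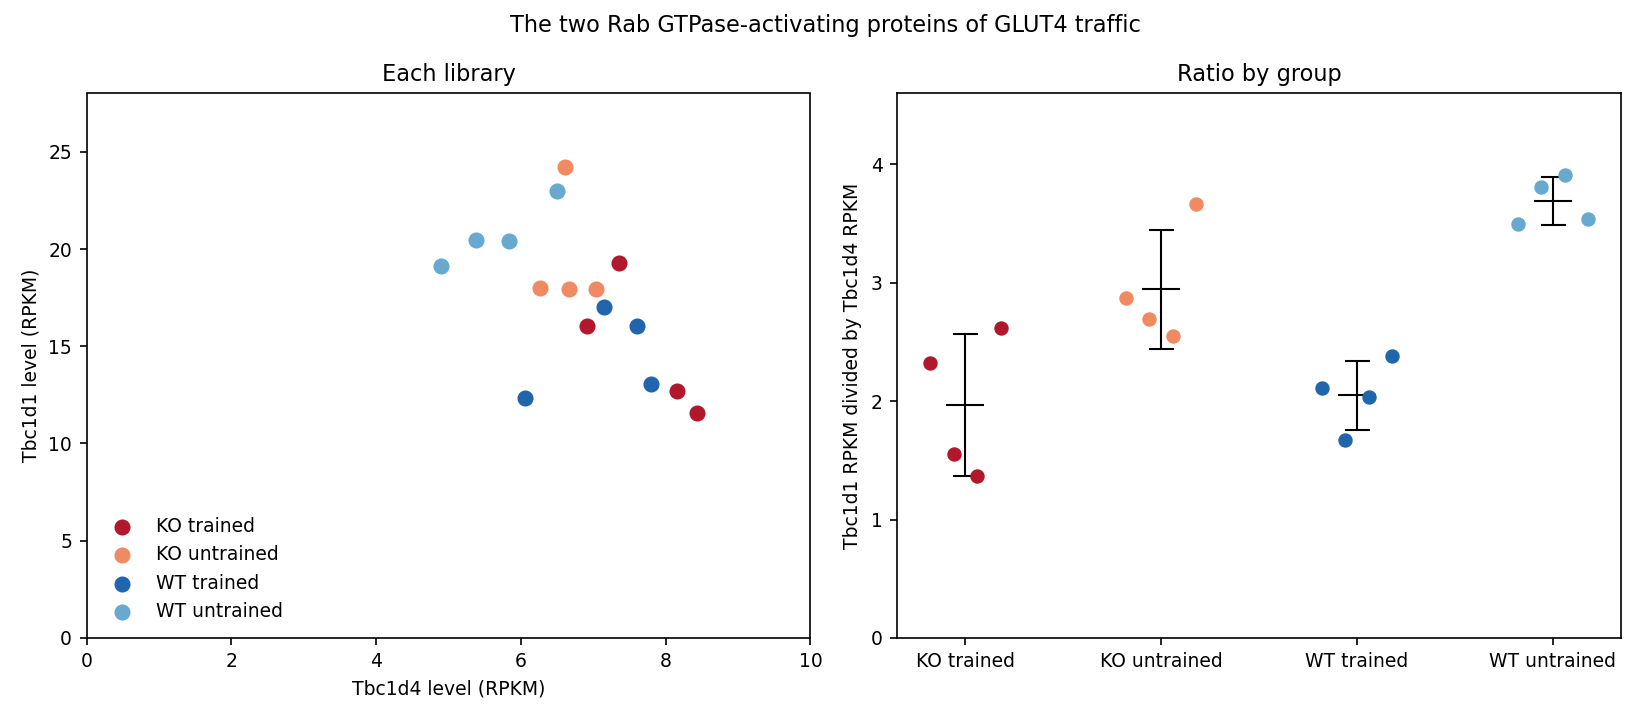
Left, Tbc1d4 against Tbc1d1 in RPKM with a point for each library, coloured by group; right, their ratio by group, with a point for each mouse and the mean with its SD (n = 4). Untrained WT libraries have ratios of 3.499 to 3.91 and trained WT libraries 1.67 to 2.38, and the KO groups overlap.

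Summed fibre-type markers differed between the groups as well. The 10 fast-fibre markers summed to 71784 to 78356 RPKM in KO trained, 78695 to 80627 RPKM in KO untrained, 71244 to 78678 RPKM in WT trained and 85566 to 94152 RPKM in WT untrained muscle. The 10 slow-fibre markers, among which Myh2 of oxidative fast fibres was the highest, summed to 641 to 1418 RPKM in KO trained, 789 to 1382 RPKM in KO untrained, 1254 to 1654 RPKM in WT trained and 671 to 938 RPKM in WT untrained muscle. The fast-fibre sum was thus lower in trained than in untrained libraries, without overlap, in both genotypes. The median log2 training difference of the fast-fibre markers was -0.064 in KO muscle, close to the -0.056 over all tested genes. In WT muscle it was -0.240, against 0.008 over all tested genes. With training in WT muscle 1 of the 10 fast-fibre markers was above 0, Myh1, with a log2 difference of 0.75 (adjusted p = 0.0949; limma). The slow-fibre sum separated the WT groups but not the KO groups. The sum of the 7 tendon markers did so too, at 89.9 to 200.4 RPKM in KO trained, 134 to 226 RPKM in KO untrained, 187 to 241 RPKM in WT trained and 113 to 142 RPKM in WT untrained muscle. The part of fibre-type and tendon genes in the Tbc1d1, Tbc1d4 and Irs1 differences was not tested.

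Slc2a4 encodes GLUT4, the insulin-responsive glucose transporter of muscle and fat (11:69942286-69948190, minus strand). It averaged 165 ± 3.84 RPKM in KO trained and 183 ± 8.62 RPKM in KO untrained muscle, and 177 ± 11.1 RPKM in WT trained and 185 ± 13.0 RPKM in WT untrained muscle (SD, n = 4 each). The KO groups did not overlap, with 169, 167, 163 and 161 RPKM after training against 189, 186, 186 and 170.1 RPKM without it. The WT groups overlapped, with 193, 167, 176 and 173 RPKM after training against 168, 183, 196 and 194 RPKM without it. The fitted training difference was 0.903-fold in KO (95% interval 0.827 to 0.987, adjusted p = 0.304) and 0.957-fold in WT muscle (95% interval 0.876 to 1.05, adjusted p = 0.737; limma). Averaged over genotypes it was 0.930-fold with an interval of 0.873 to 0.990 and an adjusted p of 0.214. In this fit, an increase of Slc2a4 RNA by 1.05-fold or more with training lay outside the 95% interval in KO and at its edge in WT muscle. Other settings put the log2 difference as high as -0.101 in KO and -0.030 in WT muscle, against -0.147 and -0.063 in this fit. The median log2 difference with training over all tested genes was -0.056 in KO and 0.008 in WT muscle.

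Slc2a4 is also expressed in fat, and fat-cell genes varied between these libraries. The summed RPKM of the 8 adipocyte markers, of which Fabp4 was the highest and Ucp1 was below 0.1 in all libraries, was 320 to 589 in KO trained, 394 to 671 in KO untrained, 383 to 487 in WT trained and 297 to 452 in WT untrained muscle. The group ranges overlapped. The 4 smooth muscle markers summed to 33.1 to 44.8 RPKM in KO trained and 47.7 to 64.8 RPKM in KO untrained muscle, which did not overlap, and to 33.4 to 60.8 RPKM in WT trained and 36.3 to 58.4 RPKM in WT untrained muscle. The part of either list in the Slc2a4 values was not tested.

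**Figure D3:**
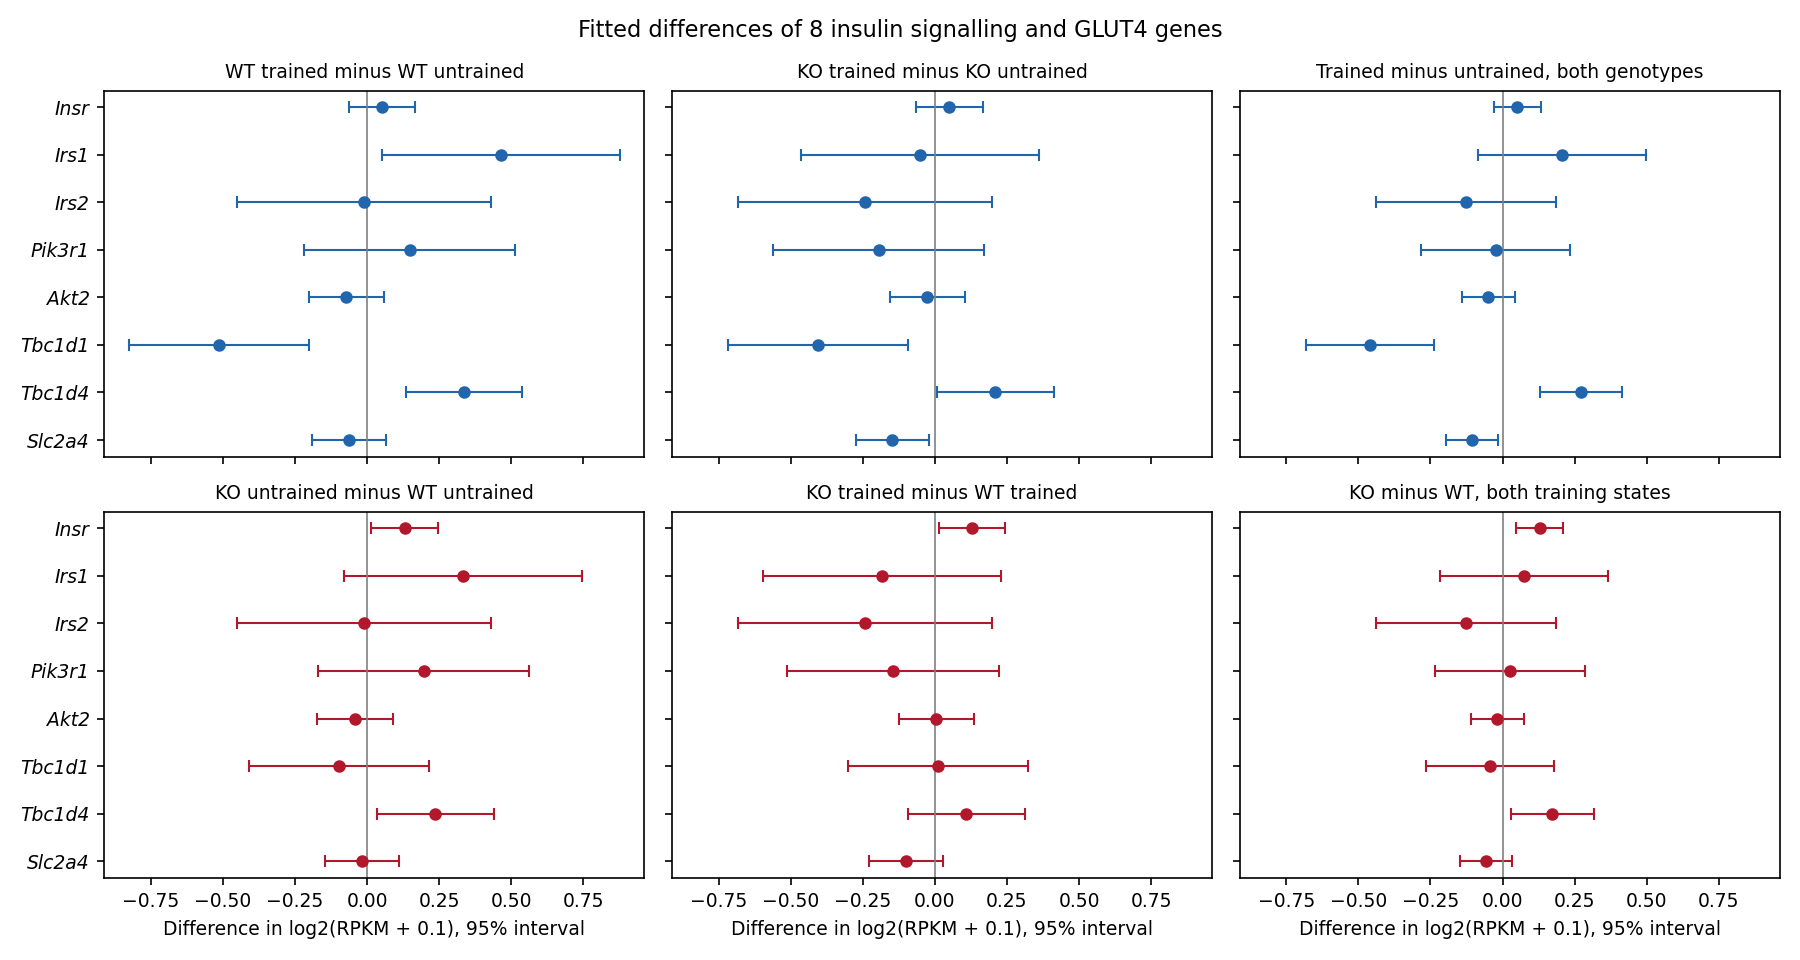
Fitted log2 differences of the 8 genes (horizontal axis; log2(RPKM + 0.1) scale) for training and for KO against WT, with bars for 95% intervals from limma. The averaged training intervals of Tbc1d1, from -0.68 to -0.24, and of Tbc1d4, from 0.13 to 0.42, lie on opposite sides of 0, but neither gene passes an adjusted p of 0.05.

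Counted over the 8 genes, none was called at an adjusted p of 0.05 by limma in any of the 7 comparisons. Training in WT muscle called 19 genes or 0.187% of all those tested, and 3 of the 8 had an unadjusted p below 0.05 against a background of 11.8%. In KO muscle the background was 0% called, and 3 of the 8 had an unadjusted p below 0.05 against 13.7% of all genes. For training averaged over genotypes, 0.777% of genes were called, and 3 of the 8 had an unadjusted p below 0.05 against 18% of all genes. For the difference of training responses these were 0% called and 0 of the 8 against 8.4%. KO against WT called 0.0492% of genes in untrained and 0.0885% in trained muscle, and 2 of the 8 against 6.2%, and 1 of the 8 against 13.9%, had an unadjusted p below 0.05 there. Averaged over training states 0.0787% of genes were called, and 2 of the 8 against 12.2% had such a p. With limma-voom on the solved reads, Tbc1d1 and Tbc1d4 passed in the averaged training comparison, both at an adjusted p of 0.0484, and none of the 8 passed in the other 6.

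Groups of 4 that did not overlap were also counted. They were found for 2 of the 8, Irs1 and Tbc1d1, with training in WT muscle, where 6.37% of all genes had them. With training in KO muscle they were found for 1 of the 8, Slc2a4, against 9.43% of all genes. Insr was the only one in the KO against WT comparisons, against 3.95% of genes in untrained and 8.48% in trained muscle. Without the first WT trained library the log2 difference with training in WT muscle was -0.56 for Tbc1d1, 0.30 for Tbc1d4, 0.50 for Irs1 and -0.10 for Slc2a4, with adjusted p of 0.0817, 0.120, 0.228 and 0.343. The averaged training difference of Slc2a4 was then -0.13 with an adjusted p of 0.0505. For Akt2 the log2 difference with training in WT muscle was -0.13 without that library, against -0.07 with it. Without the library the Akt2 interval ran from -0.242 to -0.0138, with an adjusted p of 0.208 (limma). For Irs2 the difference was -0.18 without the library (adjusted p = 0.693; limma), against -0.01 with it.

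The wider pathway was followed through 8 lists of 139 genes, of which all but 20 passed the filter on low values. None of them was called in any of the 7 comparisons at an adjusted p of 0.05 by limma on RPKM, and with limma-voom Ptpn1 was called in averaged training (adjusted p = 0.0484) and no other. For training averaged over genotypes, where 7.19% of all tested genes were higher and 10.8% lower at an unadjusted p below 0.05 and the median over all genes was -0.02 on the log2 scale, list medians ran from -0.17 for the other hexose transporters to 0.04. Whether any list differed from the rest of the genes was not tested.

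Receptor partners and adaptors gave 1 of 9 tested genes with an unadjusted p below 0.05 for averaged training, lower, and 3 of 9 were above 0. Sh2b1, which binds the active receptor, had a log2 difference of -0.15 with averaged training (adjusted p = 0.158).

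Phosphoinositide 3-kinase, AKT and the kinases after them gave 2 of 22 higher and 3 of 22 lower at an unadjusted p below 0.05, with a median of 0.002. Gsk3a, a glycogen synthase kinase that AKT inhibits, was the most abundant and averaged 36.5 RPKM in KO trained, 42.2 RPKM in KO untrained, 41.5 RPKM in WT trained and 44.9 RPKM in WT untrained muscle. Its averaged training difference was -0.17 (adjusted p = 0.0958). In WT trained muscle Gsk3a was at 48.7 RPKM in the first library and at 37.8 to 40.8 RPKM in the others, against 43.2 to 46.5 RPKM in WT untrained muscle. Rps6kb1, the S6 kinase, was at 4.16 RPKM in KO trained and 3.39 RPKM in WT trained muscle (adjusted p = 0.206).

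Of 13 tested brakes on the pathway, 2 were higher and 1 lower with averaged training at an unadjusted p below 0.05. Grb14, an inhibitor of the receptor kinase, measured 11.6, 10.1, 9.33 and 10.99 RPKM in WT trained muscle, against 7.12, 8.02, 6.23 and 7.02 RPKM in WT untrained muscle. These groups did not overlap, and the log2 difference was 0.56 (SE 0.15) with an adjusted p of 0.0967. In KO muscle Grb14 averaged 7.34 RPKM after training and 7.13 RPKM without it. Ptpn1, the phosphatase PTP1B that switches the receptor off, averaged 5.46 RPKM in KO trained, 6.52 RPKM in KO untrained, 5.18 RPKM in WT trained and 6.60 RPKM in WT untrained muscle, an averaged training difference of -0.29 with an adjusted p of 0.0621. Ppp2ca, a catalytic subunit of protein phosphatase 2A, was the most abundant of the brakes at 60.2 RPKM.

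In the list of small GTPases and exocyst subunits of GLUT4 traffic, 18 of 25 were above 0 with averaged training and 3 were higher at an unadjusted p below 0.05, with a median of 0.04. In KO against WT, averaged over training states, 20 of 25 were above 0, with a median of 0.02 against -0.02 over all tested genes. Of these 25, 4 were higher and 1 lower at an unadjusted p below 0.05, against 3.97% and 8.2% of all genes. Rab14 measured 21.2, 20.7, 21.2 and 21.3 RPKM in KO trained muscle, against 18.4, 20.04, 19.04 and 18.5 RPKM in KO untrained muscle. Its averaged training difference was 0.12 on the log2 scale (adjusted p = 0.0910). Exoc7, an exocyst subunit, had a log2 difference of -0.26 with training in WT muscle (adjusted p = 0.169). Rab10, a target of TBC1D4 in fat cells, was the most abundant of the list at 85.4 RPKM, with a range of 75.7 to 95.4 RPKM over the 16 libraries.

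The SNAREs and cargo of GLUT4 vesicles gave 2 of 14 higher and 1 of 14 lower with averaged training at an unadjusted p below 0.05. Snap23, the plasma membrane SNARE that pairs with syntaxin-4, measured 12.6, 14.3, 14.03 and 12.9 RPKM in WT trained muscle, against 12.3, 10.8, 11.98 and 11.6 RPKM in WT untrained muscle. In KO muscle it measured 14.2, 13.98, 13.9 and 14.6 RPKM after training, against 13.2, 13.2, 12.1 and 11.8 RPKM without it. In both genotypes the trained libraries were above the untrained ones, and the averaged difference was 0.19 on the log2 scale (SE 0.04) with an adjusted p of 0.0559. Stx4a, syntaxin-4, was the most abundant at 27.1 RPKM. Tusc5, a GLUT4 traffic protein known from fat cells, averaged 1.53 RPKM in KO trained, 2.43 RPKM in KO untrained, 1.88 RPKM in WT trained and 1.37 RPKM in WT untrained muscle.

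Of the other hexose transporters only 4 of 10 passed the filter, and all were far below Slc2a4. With averaged training 1 of the 4 was above 0 and 2 were lower at an unadjusted p below 0.05, with a median of -0.17. Slc2a1, the basal transporter GLUT1, measured 2.14, 2.37, 2.17 and 1.91 RPKM in KO trained muscle, against 2.72, 2.98, 3.63 and 4.28 RPKM in KO untrained muscle. These groups did not overlap, and the log2 difference was -0.62 with an adjusted p of 0.158. Slc2a3 averaged 3.15 RPKM in WT trained and 4.61 RPKM in WT untrained muscle, a log2 difference of -0.52 (adjusted p = 0.0967). Slc2a8 was the most abundant of the 4 at 4.50 RPKM.

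AMP-activated protein kinase and its upstream kinases gave 2 of 18 higher and 3 of 18 lower with averaged training at an unadjusted p below 0.05. Prkag3, the regulatory subunit typical of fast muscle, averaged 51.4 RPKM in WT trained and 63.9 RPKM in WT untrained muscle, a log2 difference of -0.31 with an adjusted p of 0.0889, and 51.4 RPKM in KO trained and 53.5 RPKM in KO untrained muscle. Prkab2, a beta subunit, was the most abundant at 117.3 RPKM. Camk2b, a calcium-dependent kinase, had an averaged training difference of -0.18 (adjusted p = 0.0967).

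Among the transcriptional regulators of Slc2a4, 4 of 14 were above 0 with averaged training, 0 were higher and 3 were lower at an unadjusted p below 0.05, and the median was -0.06. In KO muscle 2 of 14 were above 0 with training, with a median of -0.15 against a median of -0.06 over all tested genes. Mef2d, a MEF2 factor, measured 34.9, 34.7, 36.3 and 37.1 RPKM in KO trained muscle, against 41.2, 45.1, 43.5 and 40.6 RPKM in KO untrained muscle. It averaged 41.4 RPKM in WT trained and 44.8 RPKM in WT untrained muscle, and the averaged difference was -0.19 with an adjusted p of 0.0752. Nfic, of the nuclear factor I family, had an averaged difference of -0.17 (adjusted p = 0.0860). Mef2c was the most abundant at 76.3 RPKM.

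**Figure D4:**
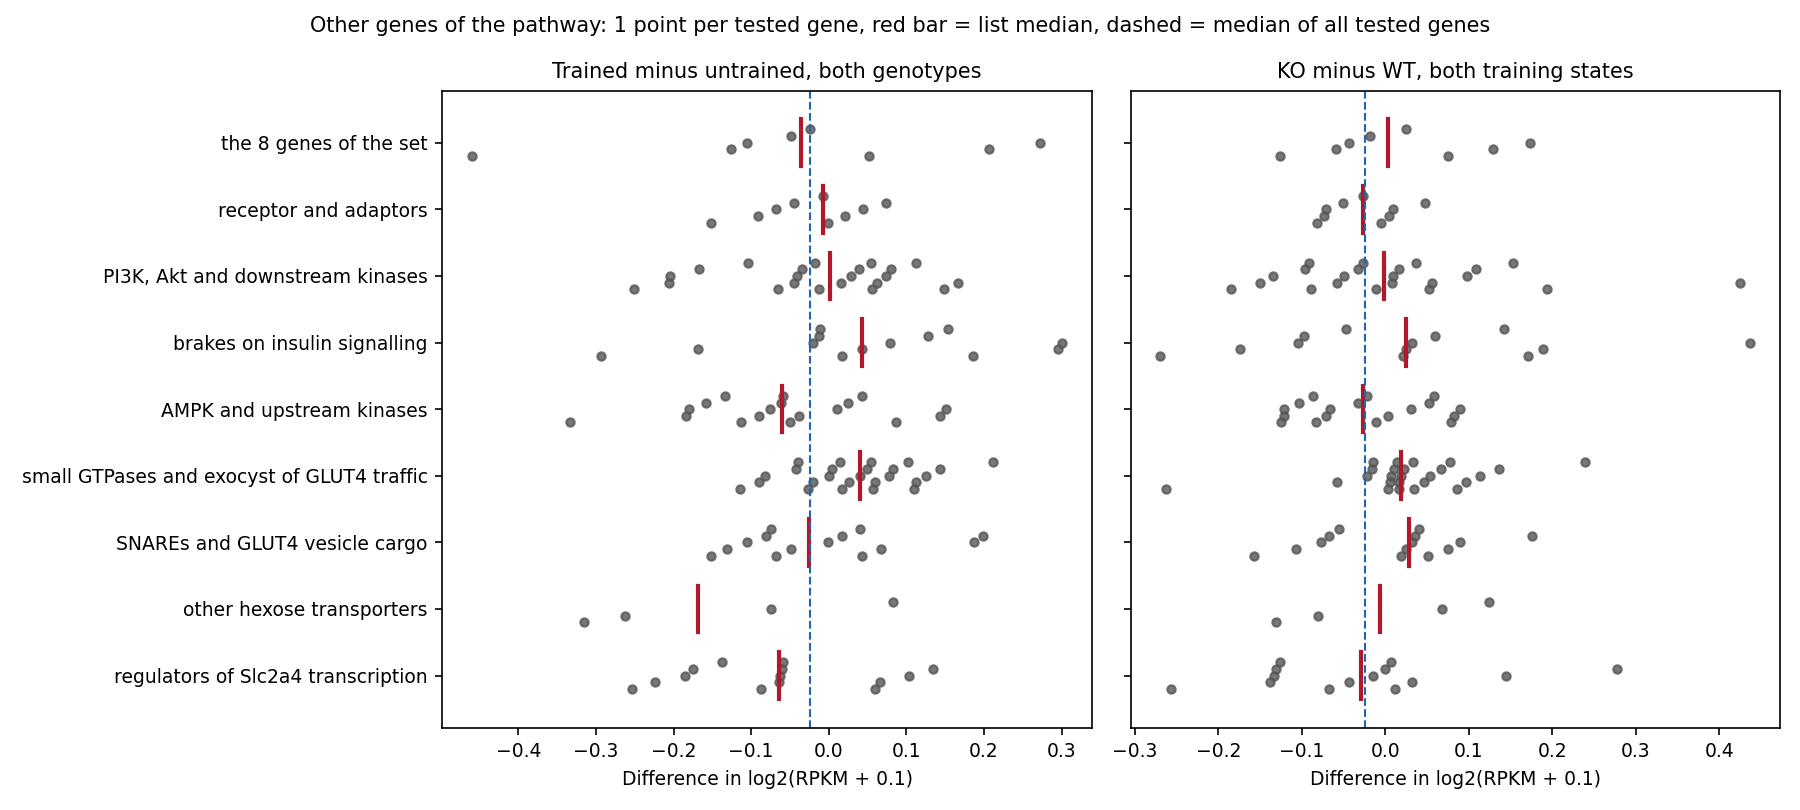
Fitted log2 differences (horizontal axes) of the tested genes of the 8 pathway lists, with a point for each gene and a bar at the list median, for training and for KO against WT. List medians for averaged training lie between -0.17 and 0.04, with the median of all tested genes at -0.02, and no gene passes an adjusted p of 0.05.

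The genes whose levels followed each of the 8 most closely between mice of the same group were found by Pearson correlation of log2(RPKM + 0.1) over the 16 libraries after subtraction of group means. These are the highest of 10171 correlations for each gene, over libraries that share their depth and tissue, and are given as descriptions. Akt2 was followed most closely by Bloc1s1 (r = 0.97) and Akt1s1 (r = 0.97), which encodes the AKT substrate PRAS40. Irs1 was followed by Stbd1 (r = 0.94) and Akap2 (r = 0.93), and Tbc1d4 by Nt5dc1 (r = 0.94) and Enpp2 (r = 0.84). Irs2 was followed by Pecam1 (r = 0.93, and 0.90 without the 2 libraries farthest from the median) and Ppp1r18 (r = 0.92). Pecam1 is an endothelial marker, and the 5 endothelial markers summed to 59.5 to 64.9 RPKM in KO trained, 62.5 to 72.9 RPKM in KO untrained, 66.3 to 82.4 RPKM in WT trained and 62.6 to 78.7 RPKM in WT untrained muscle. Their part in the Irs2 values was not tested.

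For Slc2a4 the closest were Phrf1 (r = 0.90) and Sec13 (r = 0.88), and without subtraction of group means Tuba8 (r = 0.91) and Capn1 (r = 0.90). Pik3r1 was followed by Rev1 (r = 0.88) and Ddx5 (r = 0.86), Tbc1d1 by Tk1 (r = 0.84) and Zbtb2 (r = 0.81), and Insr by Nmnat1 (r = 0.82) and Tmc6 (r = 0.80). Without subtraction, the closest to Tbc1d1 was Dapk2 (r = 0.85) and the closest to Tbc1d4 was Kctd18 (r = 0.84). Among the 8 genes themselves, Akt2 and Slc2a4 varied together within groups (r = 0.68), as did Irs2 and Akt2 (r = 0.61), whereas Irs1 and Pik3r1 varied oppositely (r = -0.67). The RPKM values were not rescaled between libraries for these correlations. Factors of median-ratio scaling ran from 0.943 in the fourth KO untrained to 1.09 in the first WT trained library. Akt2 was at 70.5 and 82.3 RPKM in these libraries. The part of such library-wide shifts in the correlations was not tested. Tbc1d1 and Tbc1d4 did not vary together within groups (r = -0.02). Over all 16 libraries, with group means kept in, they had r = -0.55.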

How the data were processed

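RNA had been extracted with Trizol and sequenced from a stranded TruSeq mRNA kit, per the labels' protocols. The authors deposited 1 table of RPKM values per gene and library. The submitters' processing notes name mm10 as the build and, as given here, no aligner, counter or annotation. Whole reads were solved from the steps of the RPKM values, and 100% of the values of tested genes came out whole within 0.01 read. The 10171 genes reaching 1 RPKM in 4 or more of the 16 libraries were fitted on log2(RPKM + 0.1) with 1 mean per group in limma 3.58.1 (R 4.3.3, trend and robust moderation), with Benjamini-Hochberg adjustment over all of them and a threshold of 0.05. Fold changes are on that scale and understate changes of low genes. On simulated data with training in WT mice and 10171 genes, 78% of 1.5-fold and 96% of 2-fold changes were recovered, and 13 unchanged genes were called. The simulated spread was drawn for each gene alone, with no shift shared by the genes of a library, so these rates may not hold for the real libraries.

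The 8 genes and all lists were chosen with earlier results of these data known. Named are the 8 genes; of each pathway list the genes past the threshold, the 2 with the smallest p in any comparison and the most abundant; of each cell type list the most abundant; and for each of the 8 genes the closest by correlation. Values of some genes under this rule are not reported here. Older symbols were matched through RefSeq synonyms (Emr1, Stxbp3a). Overlaps were read from GENCODE M21. Promoter windows from RefSeq were available for 6 of the 8 genes. Alternatives were other pseudocounts, filters, scalings, weights, a replicate block, voom, a threshold of 0.1 and leaving out each library. P-values measure the spread between these mice, 4 per group.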

Additional observations from a re-analysis of the deposited data

Results flagged for a closer look

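Of the 32 sets of 4 libraries checked (8 genes in 4 groups), 1 had a library set apart from the other 3 by Dixon's test at its 95% critical value, which sets the gap to the nearest library against the whole range. Tbc1d1 in KO untrained muscle measured 24.2 RPKM in 1 library and 17.93 to 17.97 RPKM in the other 3, a gap of 0.993 of the range. The next largest gaps were under that value. They were 0.812 for Slc2a4 in the same KO untrained library, the lowest of its group at 170.1 RPKM, and 0.796 for Pik3r1 in the KO trained library at 3.10 RPKM. For the Irs2 library at 6.80 RPKM in KO untrained muscle the gap was 0.731. A test at this level sets apart about 1 in 20 sets by chance. Without the fourth KO untrained library, with Tbc1d1 at 24.2 RPKM, the fitted training difference of Tbc1d1 in KO muscle was -0.30 on the log2 scale, against -0.41 with it.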

How the results depend on the processing

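None of the 8 genes was called for training in KO muscle, for the difference of training responses or for KO against WT under any of the 27 or 28 alternatives that could be run for each. For training in WT muscle, Tbc1d1 alone was called (1 gene) with a replicate block (adjusted p = 0.0432) and with weights per library (0.0413). For training averaged over genotypes the count of 0 became 1 with quantile normalization (Tbc1d4, 0.0256) and with the replicate block (Tbc1d1, 0.0211), 2 at an adjusted p under 0.1, with a filter at 5 RPKM, with median-ratio scaling and with voom (Tbc1d1 and Tbc1d4), and 3 with weights per library, which added Slc2a4 (0.0329). Leaving out 1 library gave 0 to 2. Same-numbered libraries had correlations of their deviations between -0.182 and 0.442, with 6 of 24 pairs over 0.1. Among these, the pairs of a KO trained with a KO untrained library had 0.149, 0.191, 0.442 and 0.0523. Of the 16 libraries, 6 correlated best with their own number. The labels name no link between same-numbered mice, and the main fit did not pair them. These correlations do not settle whether the numbers mark pairs. The directions of Tbc1d1 and Tbc1d4 with training and of Insr between genotypes were the same under all alternatives. Depth limits Irs2 most, with 235 reads in its lowest library, and then Pik3r1 with 350 and Irs1 with 364.

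Over all genes, training in WT muscle called 19 genes, and 136 at an adjusted p under 0.1, 39 with a pseudocount of 1, 3 with no filter, 58 with the filter at 5 RPKM, 155 with quantile and 155 with median-ratio scaling, 35 with only these groups fitted, 329 with weights, 3 with plain moderation, 64 with voom and 0 to 272 without 1 library. Averaged training called 79, and in the same order of settings 376 at the looser threshold, 27 with no filter, 157 at 5 RPKM, 252 with quantile and 285 with median-ratio scaling, 31 with the block, 1152 with weights, 30 with plain moderation, 122 with voom and 18 to 1044 without 1 library. Training in KO muscle called 0, with 1 for no filter, 97 for weights and 0 to 106 without 1 library, and the difference of responses 0, with 1 for no filter, 1 for quantile normalization and 0 to 2 without 1 library. KO against WT called 5 in untrained muscle, 3 at 5 RPKM, 3 with only these groups and 3 to 5 without 1 library, and in trained muscle 9, 3 with only these groups, 5 with the block, 2 with plain moderation and 2 to 9 without 1 library. The highest counts without 1 library in the training comparisons, 272, 106 and 1044, all came without the first WT trained library, and the next highest were 52 in WT, 1 in KO and 61 averaged. The cause of these changes was not tested.

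Differences near 0 changed sign. Quantile normalization turned Akt2 to 0.0423 for training in KO, 0.0124 for averaged training, 0.0103 for untrained KO against WT and 0.0402 for averaged KO against WT, Slc2a4 to 0.0716 and 0.0340 in those same genotype comparisons, and Insr to 0.0545 for the difference of responses. Median-ratio scaling gave 0.0205, 0.0118 (Akt2, training in KO and averaged KO against WT) and 0.0478 (Insr), and weights gave 0.000884 (Akt2, averaged KO against WT) and 0.0217 (Irs2, untrained KO against WT). Without 1 library, ranges crossing 0 were for training in WT, Irs2 -0.18 to 0.099, Pik3r1 -0.042 to 0.26, and for training in KO, Irs1 -0.21 to 0.15, and for the difference of responses, Insr -0.025 to 0.021, Tbc1d1 -0.024 to 0.22, and for untrained KO against WT, Irs2 -0.21 to 0.12, Slc2a4 -0.063 to 0.018, and for trained KO against WT, Akt2 -0.029 to 0.061, Tbc1d1 -0.12 to 0.12, and for averaged training, Pik3r1 -0.12 to 0.041, and for averaged KO against WT, Irs1 -0.024 to 0.15, Pik3r1 -0.069 to 0.090, Akt2 -0.035 to 0.0096, Tbc1d1 -0.11 to 0.012.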
